A study of Homo sapiens with 6 samples.

Results

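The genes described here are kallikrein-related peptidases and their SPINK inhibitors: KLK1, KLK5, KLK6, KLK7, KLK8, KLK10, KLK11, KLK13, SPINK5 and SPINK6. They were taken by symbol, with all probe sets that carry a single gene symbol averaged per gene. Of the 10 genes listed, 9 had such a probe set, 14 probe sets in all, among 19775 genes and 41091 probe sets of the array. SPINK5 was not analysed here. The members were chosen by their log2 ratios over the 6 densities, which were known when the list was drawn up, so their profiles are given as a description, with slopes and standard errors and without p-values.

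The cells were MCF10A, a widely used human mammary epithelial line that does not form tumours, cultured in 35 mm dishes. They were plated at 50K, 100K, 200K, 400K, 600K or 800K cells, and total RNA was taken at 24 h. Medium was the same at every density, DMEM/F12 with 5% horse serum, EGF at 20 ng/ml, hydrocortisone at 0.5 μg/ml, cholera toxin at 100 ng/ml, insulin at 10 μg/ml and gentamicin at 100 μg/ml, so the glucocorticoid was present throughout. Each density was represented by 1 Affymetrix HG-U133 Plus 2 array, 6 arrays in all, with no replicate at any density, which is what limits the precision. The design asks how expression differs between sparse and crowded dishes.

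The deposited values compare every array, probe set by probe set, with 50K. Such a ratio shows a change but no level: a gene whose ratio stays near 1 may be steadily expressed or may lie at background throughout, and levels cannot be compared between genes. For the same reason the epithelial identity of the cells could not be checked by the presence or absence of markers. Of 4 measured epithelial markers (EPCAM, CDH1, KRT5 and KRT14), 3 rose with density, and their mean ratio lay between 1 and 1.87 over the 6 arrays. Mean ratios lay between 1 and 1.09 for 5 fibroblast markers, of which 1 rose, and between 1 and 1.32 for 4 endothelial markers, of which 2 rose. For 3 leukocyte markers the range was 1 to 2.71, through CD14, which was 5.66-fold higher at 800K, while PTPRC, the marker shared by leukocytes, was at 1.02 there. The 3′ over 5′ signal of ACTB, a sign of RNA integrity, rose with each step in density from 100K to 800K. Relative to 50K it stood at −0.02, 0.04, 0.17, 0.22 and 0.30 log2 units on these arrays. That of GAPDH stayed between −0.05 and 0.07. The spiked-in poly-A controls averaged 0.20 to 0.37 log2 units below their 50K value on the other arrays. The part of these in the results below was not tested.

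Kallikrein-related peptidases are secreted serine proteases that are made as inactive proforms and activate one another in cascades. In stratified epithelia KLK5, KLK7 and KLK14 cut the proteins of the corneodesmosomes, which lets the outermost cells shed, and SPINK proteins, which carry Kazal-type inhibitor domains, hold them in check. SPINK5 encodes the multidomain inhibitor LEKTI, and SPINK6 a small, single-domain inhibitor selective for kallikreins. Several kallikreins are also known from mammary epithelium, where KLK10 was described as a gene lost in breast cancer lines. The kallikrein genes lie in a row on chromosome 19, and SPINK5 and SPINK6 lie in a cluster of SPINK genes on chromosome 5.

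The sequences before the transcription start are shown for 4 genes, because neighbours in the kallikrein row behaved differently and SPINK6 went the opposite way: KLK5 and KLK7, which were higher in dense cultures, KLK6, which lies between them and stayed near its 50K value, and SPINK6. RefSeq promoter windows on GRCh38.p14 were found for 8 of the 10 genes, all but KLK1 and KLK8, and the 250 bases before the outermost listed start were taken. The windows printed are KLK5 at chr19:50953039-50953288 (minus strand), KLK6 at chr19:50969592-50969841 (minus strand), KLK7 at chr19:50984065-50984314 (minus strand) and SPINK6 at chr5:148202528-148202777 (plus strand), each written 5′ to 3′ along its gene. Capitals mark matches to GGAATG, the core of the TEAD factors' motif, on either strand.
KLK5: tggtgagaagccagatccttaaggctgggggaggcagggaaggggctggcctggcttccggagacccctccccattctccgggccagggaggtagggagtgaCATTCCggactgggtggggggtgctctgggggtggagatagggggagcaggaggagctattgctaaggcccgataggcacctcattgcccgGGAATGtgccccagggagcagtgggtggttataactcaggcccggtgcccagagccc
KLK6: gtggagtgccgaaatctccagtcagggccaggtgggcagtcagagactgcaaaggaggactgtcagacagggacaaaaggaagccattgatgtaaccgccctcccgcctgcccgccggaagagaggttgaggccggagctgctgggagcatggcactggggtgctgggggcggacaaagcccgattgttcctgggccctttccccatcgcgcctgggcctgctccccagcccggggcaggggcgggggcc
KLK7: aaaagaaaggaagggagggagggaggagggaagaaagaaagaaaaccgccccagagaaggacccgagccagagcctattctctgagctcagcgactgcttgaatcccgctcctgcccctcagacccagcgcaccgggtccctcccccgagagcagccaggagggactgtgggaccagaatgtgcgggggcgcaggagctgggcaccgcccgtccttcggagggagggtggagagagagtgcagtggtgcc
SPINK6: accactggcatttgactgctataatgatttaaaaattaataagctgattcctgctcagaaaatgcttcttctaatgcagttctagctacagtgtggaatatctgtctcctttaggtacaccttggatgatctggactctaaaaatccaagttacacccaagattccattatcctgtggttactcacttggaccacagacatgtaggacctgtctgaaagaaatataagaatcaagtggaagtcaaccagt

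Both strands of all 8 windows were searched for 5 motifs. These were TATAAA for the TATA box, the TEAD core given above, TGANTCA for AP-1, AACNNGTT for the grainyhead-like factors, and AGAACA, which the glucocorticoid receptor reads as one part of its site. The KLK5 window held 2 matches to the TEAD core, 148 to 143 and 57 to 52 bases before the start. The windows of KLK6, KLK7, KLK10, KLK11, KLK13 and SPINK6 held none of the 5 motifs. The SPINK5 window held a TATA box 30 to 25 bases before the start, overlapped by its own reverse match, as well as the TEAD, grainyhead-like and glucocorticoid receptor motifs, the TEAD and receptor matches sharing bases. Among 27326 windows of this length, 11.2% held the TATA box, 11.95% the TEAD core, 6.57% the AP-1 motif, 3.00% the grainyhead-like motif and 12.4% the glucocorticoid receptor motif. The windows also differed in composition: G and C made up 58.4% to 66.8% of the 6 kallikrein windows, against 38.8% for SPINK6 and 41.6% for SPINK5. A match is only a run of letters, and its absence says nothing of the factor.

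In dense cultures 5 kallikreins were 3.62-fold to 7.76-fold higher than at 50K, and SPINK6 was 10.2-fold lower. The 5 were KLK5, KLK7, KLK8, KLK10 and KLK11; the other 3 peptidases, KLK1, KLK6 and KLK13, differed by less than 2-fold at 800K. Over all genes, 2.25% were at least 2-fold higher at 800K than at 50K and 2.69% at least 2-fold lower. A straight line was fitted to the log2 ratio over log2 cell number, which gives log2 units per doubling of the cell number, and adjusted p under 0.05 in limma, with Benjamini-Hochberg adjustment over all 19775 genes, was taken as passing. By that rule 6 of the 9 members passed with a positive slope and 1 with a negative one, against 8.93% and 12.4% of all genes and 21.3% in both directions together. Since the same profiles chose the members, nothing is read from these counts. Fewer cells that express a gene and less of its RNA per cell cannot be told apart in such bulk samples. The median slope was 0.46 over the 9 members and 0.0045 over all genes. The choice of members bears on this difference and on the ranks given below as well, so nothing is read from them.

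**Figure D1:**
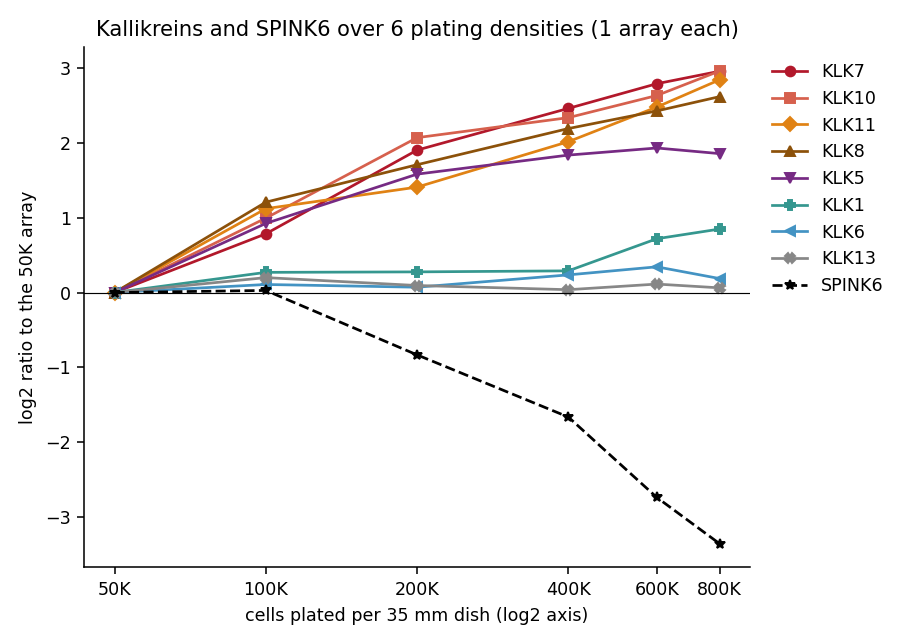
Log2 ratio to the 50K array (vertical) against the number of cells plated (horizontal, log2 axis) for the 9 measured genes, 1 array per density, points joined by lines. KLK5, KLK7, KLK8, KLK10 and KLK11 climb together to between 1.85 and 2.96 at 800K, KLK6 and KLK13 stay under 0.35, and SPINK6 (dashed) drops to −3.35.

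KLK5 encodes a trypsin-like peptidase that can activate itself and other kallikreins. Its ratio to 50K was 1.90, 2.99, 3.57, 3.81 and 3.62 over the arrays from 100K to 800K, given here, as for the genes that follow, in the order 100K, 200K, 400K, 600K, 800K. It climbed over the 3 lowest densities and was nearly level from 400K on, with 85.2% of the log2 change between 50K and 800K already present at 200K. The slope was 0.46 ± 0.07 (SE, 6 arrays), with the largest standard error of the 5 kallikreins that differed most.

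KLK7 encodes the chymotrypsin-like peptidase of the stratum corneum, which cuts corneodesmosin and desmocollin 1. Its ratio was 1.72, 3.73, 5.49, 6.90 and 7.75 from 100K to 800K, higher at every step. The slope of 0.75 ± 0.04 ranked 32 from the steepest rise among 19775 genes. Its 2 probe sets ran side by side, reaching 7.22-fold and 8.31-fold at 800K.

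KLK8, neuropsin, is a trypsin-like peptidase of the epidermis and the brain. Its ratio was 2.31, 3.26, 4.56, 5.37 and 6.12 from 100K to 800K. The 2 probe sets gave 7.72-fold and 4.86-fold at 800K and changed their order between the 2 lowest densities after 50K: the first had 1.87 at 100K and 4.12 at 200K, the second 2.85 at 100K and 2.58 at 200K. Both were above the 50K array on each of the 5 others, and the slope of their mean was 0.61 ± 0.06.

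KLK10 encodes a family member first described as a gene expressed in normal mammary epithelium. Its ratio was 1.99, 4.19, 5.04, 6.19 and 7.76 from 100K to 800K, again in the order of the densities. The slope was 0.70 ± 0.06, and the 2 probe sets reached 6.71-fold and 8.98-fold at 800K.

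KLK11, a trypsin-like peptidase of skin and other epithelia, had ratios of 2.17, 2.65, 4.04, 5.56 and 7.16 from 100K to 800K. Unlike KLK5 it kept climbing over the upper range, and its slope was 0.65 ± 0.05. It was measured by 1 probe set.

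The profiles of these 5 genes lay close to each other. The root mean square difference over the 5 arrays other than 50K was 0.15 log2 units between KLK7 and KLK10, 0.19 between KLK8 and KLK11 and 0.27 between KLK8 and KLK10. It was largest between KLK5 and KLK7, at 0.70, KLK5 having levelled off while KLK7 went on. By density, the 5 ratios lay between 1.72 and 2.31 for 100K, between 2.65 and 4.19 for 200K, between 3.57 and 5.49 for 400K, between 3.81 and 6.90 for 600K, and between 3.62 and 7.76 for 800K, where the genes were spread most widely.

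KLK1, the tissue kallikrein that releases kinins from kininogen, had ratios of 1.21, 1.21, 1.22, 1.64 and 1.80 from 100K to 800K. It was flat over the middle densities and higher on the 2 densest arrays, with a slope of 0.18 ± 0.04. KLK6, a trypsin-like peptidase known from brain and from breast and ovarian tumours, had ratios of 1.08, 1.05, 1.18, 1.27 and 1.14 from 100K to 800K and a slope of 0.07 ± 0.02. KLK13 stayed between 1.03 and 1.15, with a slope of 0.0007 ± 0.02, and its 3 probe sets had slopes of 0.04, −0.0036 and −0.03. KLK6 and KLK13 were the 2 members that did not pass the slope test, a description only, because the same profiles chose the members.

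SPINK6 ran against the peptidases. Its ratio was 1.02, 0.562, 0.316, 0.150 and 0.0979 from 100K to 800K. The 100K array was level with 50K, and each denser array was lower than the one before. The slope was −0.87 ± 0.11, rank 7 from the steepest fall among 19775 genes, from 1 probe set.

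KLK5, KLK7, KLK8 and KLK10 had the larger part of their climb below 200K, whereas SPINK6 had the larger part of its drop above it. Between 50K and 200K, a 4-fold difference in cells, the log2 ratio of KLK5 was higher by 1.58, that of KLK7 by 1.90, that of KLK8 by 1.71, that of KLK10 by 2.07 and that of KLK11 by 1.41. Between 200K and 800K, again 4-fold, the further differences were 0.27, 1.05, 0.91, 0.89 and 1.43 in the same order of genes. SPINK6 fell by 0.83 over the lower range and by 2.52 over the upper one, and KLK1 was higher by 0.28 and then by 0.57. As a share of the whole log2 change, 85.2% of that of KLK5, 69.9% of KLK10, 65.2% of KLK8, 64.4% of KLK7 and 49.6% of KLK11 was present at 200K. Among all 444 genes that were at least 2-fold higher at 800K the median share was 33.5%, with quartiles of 17.2% and 49.5%. KLK5, KLK7, KLK8 and KLK10 lay above the upper quartile and KLK11 about at it. For SPINK6 the share was 24.8%, near the median of 27.4% among the 532 genes at least 2-fold lower. These shares rest on single arrays and carry no test. The members were chosen by these same profiles, so nothing is read from their place among all genes.

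**Figure D2:**
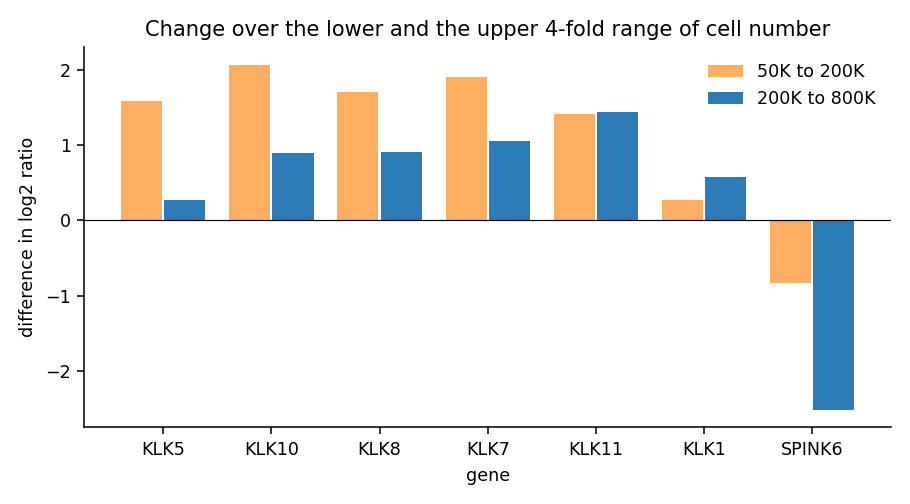
Difference in log2 ratio (vertical) between 50K and 200K (orange) and between 200K and 800K (blue) for the 7 genes that passed the slope test, from 1 array per density and without error bars. For KLK5, KLK10, KLK8 and KLK7 the lower range holds the larger part, for KLK11 the 2 parts are about equal at 1.41 and 1.43, and SPINK6 has its larger part, −2.52, in the upper range.

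SPINK6 inhibits KLK5, KLK7 and KLK14, and the difference between a peptidase and SPINK6 was followed on the log2 scale. KLK7 relative to SPINK6 was higher than at 50K by 0.76, 2.73, 4.12, 5.52 and 6.31 log2 units in the order of the densities, a shift of 79.1-fold between 50K and 800K. KLK5 relative to SPINK6 shifted by 36.9-fold and KLK14 by 26.6-fold. The 10.2-fold drop of SPINK6 itself is part of every such shift. KLK6 and KLK13, which stayed near their 50K values, therefore still shifted by 11.6-fold and 10.7-fold relative to SPINK6. The largest shift was that of KLK10, at 79.3-fold. These are ratios of mRNA changes relative to the 50K array and say nothing of the amounts of either protein. Each shift grew with every step in density, and beyond 200K the greater part of it came from SPINK6.

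Along chromosome 19 the 5 kallikreins with the large differences sit together but not without a gap. In RefSeq order the row runs KLK1, KLK15, KLK3, KLK2, KLK4, KLK5, KLK6, KLK7, KLK8, KLK9, KLK10, KLK11, KLK12, KLK13 and KLK14. KLK5, KLK7, KLK8, KLK10 and KLK11 lie in the stretch between KLK4 and KLK12, where KLK6 stayed near its 50K value and KLK9 was not analysed here. KLK4 and KLK12, on either side, were 1.02 and 1.06 times their 50K values at 800K. KLK14, at the far end of the row, was 2.17-fold above 50K on the 100K array, nearer to it on the 200K and 400K arrays (the first at 1.70), and 2.61-fold above it on the 800K array. It did not follow the densities in order, and its slope of 0.23 ± 0.09 did not pass (adjusted p = 0.149, limma). The genes measured next to the row, GPR32, ACP4, SIGLEC9 and SIGLEC7, had slopes of 0.0021, 0.07, −0.01 and 0.01, with adjusted p of 0.361 or more in limma.

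**Figure D3:**
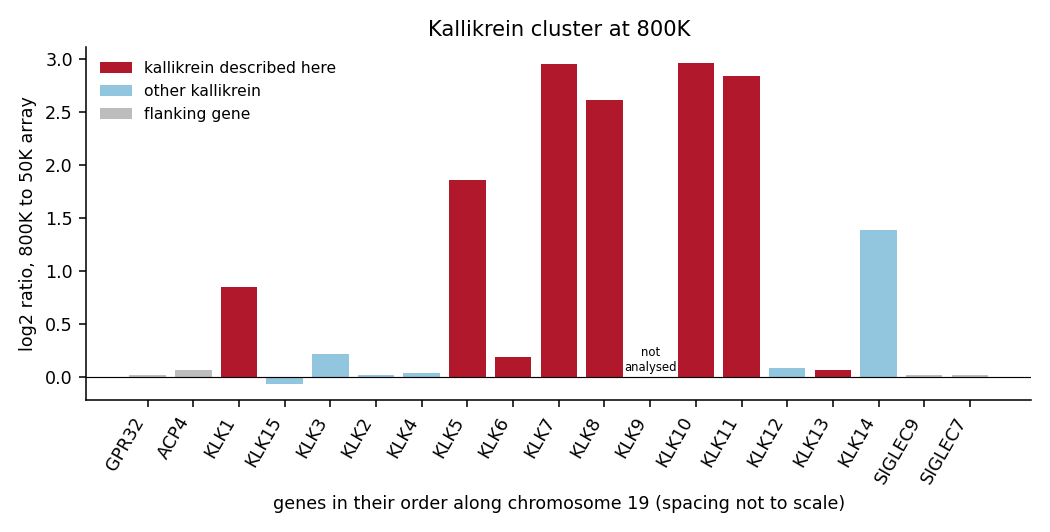
Log2 ratio of the 800K to the 50K array (bars) for the kallikrein genes and 2 measured genes on either side, in their order along chromosome 19, spacing not to scale. The members between KLK4 and KLK12 reach 1.85 to 2.96 except KLK6 at 0.19, and the flanking genes stay under 0.07.

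On chromosome 5, SPINK6 differed from its neighbours. SPINK13 and SPINK7, the next measured genes on one side, were at log2 ratios of 0.04 and −0.06 at 800K, and C5orf46 and SCGB3A2 on the other side were at 0.25 and 0.03. None of these 4 passed the slope test (adjusted p of 0.322 or more, limma), and of these and the 4 genes beside the kallikrein row 0 had an unadjusted p under 0.05. Outside the members, 7 other kallikreins and 5 other Kazal inhibitors were measured, among them KLKB1, the plasma kallikrein, which is no member of the chromosome 19 family. By limma 0 of the 12 passed in either direction, against 8.93% of all genes rising and 12.4% falling. These 12 are what remained after the members had been chosen by their profiles, so nothing is read from this count. The 2 genes KLK3 and KLK14 had an unadjusted p under 0.05 (adjusted p = 0.0944 and 0.149). Without the 100K array, 1 of the other kallikreins passed as rising.

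Of 20 other measured inhibitors of proteases in epithelia, 10 rose with density, 2 fell and 8 did not pass, against 8.93% of all genes rising and 12.4% falling, with a median slope of 0.17. SERPINA3, antichymotrypsin, was 21.3-fold higher at 800K (slope 1.19 ± 0.09, adjusted p = 0.00106 in limma). SERPINA5, the protein C inhibitor, which also inhibits kallikreins, was 3.48-fold higher (0.42 ± 0.03, adjusted p = 0.00137 in limma), and CSTA, the cysteine protease inhibitor of the cornified envelope, 2.73-fold higher (0.38 ± 0.05, adjusted p = 0.00452 in limma). SERPINB13, a cathepsin inhibitor of keratinocytes, had a slope of 0.44 ± 0.02 over 6 probe sets, which turned to −0.0095 when probe sets with the suffixes _x_at and _s_at were left out. Those that fell were SERPINE2, protease nexin-1, 2.35-fold lower at 800K (−0.33 ± 0.04, and −0.54 without those probe sets), and CST6, cystatin M/E, 1.81-fold lower (−0.23 ± 0.02). The serine protease inhibitors PI3 (elafin), SLPI and SPINT1, which were chosen after their values were seen, rose as well and were 2.86-fold, 2.51-fold and 1.63-fold higher at 800K.

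Another list held 20 proteases, not all of which act at the epithelial surface. Of these 4 rose, 1 fell and 15 did not pass, against 8.93% of all genes rising and 12.4% falling. PRSS8, prostasin, a membrane-anchored protease of the epidermal barrier, was 4.34-fold higher at 800K, with a slope of 0.51 ± 0.05 (adjusted p = 0.0025 in limma). Its ratio was already 2.04 at 100K. PLAT, the tissue plasminogen activator, was 3.59-fold higher (0.47 ± 0.03) and CTSD, cathepsin D, 3.18-fold higher (0.46 ± 0.03). ST14, matriptase, the activator of prostasin, was the other gene that rose, 1.48-fold at 800K. PRSS3, mesotrypsin, was 2.24-fold lower (−0.30 ± 0.07, adjusted p = 0.0341 in limma), and its call was lost without the 50K (adjusted p = 0.266), 100K (0.1), 400K (0.0657) or 600K array (0.0843).

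Among 19 measured substrates and receptors of kallikreins, 6 rose, 4 fell and 9 did not pass, against 8.93% of all genes rising and 12.4% falling. Without the 100K array 3 rose, against 6.51% of all genes. The corneodesmosome genes DSG1, DSC1 and CDSN, named after their values were seen because KLK5 and KLK7 cut their products in skin, did not pass and were at 1.05, 1.05 and 1.27 at 800K. SCNN1B and SCNN1G, subunits of the epithelial sodium channel, which proteases activate, were 10.3-fold and 2.04-fold higher (slopes 0.87 ± 0.09 and 0.25 ± 0.02). FN1, fibronectin, was 3.83-fold lower (−0.49 ± 0.02), a call that was lost without _x_at and _s_at probe sets (−0.08, adjusted p = 0.175 in limma). IGFBP3, a binding protein of insulin-like growth factors, was 2.40-fold lower (−0.36 ± 0.03). IL1B and BDKRB1, the kinin B1 receptor, also fell, with ratios of 0.554 and 0.536 at 800K, at adjusted p of 0.0499 and 0.0464 in limma. Both calls were lost without any 1 of the 50K, 100K, 400K, 600K and 800K arrays, with adjusted p up to 0.354 for IL1B and 0.217 for BDKRB1, both without 50K.

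In limma 9 of 13 measured transcription factors of epidermal differentiation rose and 4 did not pass, against 8.93% of all genes rising. Falling genes numbered 0, also at an unadjusted p under 0.05, against 12.4% of all genes falling. This list, like the others, was chosen with earlier results of these data known, so nothing is read from its share. GRHL3, a grainyhead-like factor of the epidermal barrier, was 2.10-fold above 50K at 100K, 9.91-fold at 400K and 11.2-fold at 800K. EHF, an epithelial ETS factor, was at 3.69 at 200K and 8.80 at 800K. ZNF750 and ELF3 were below their 50K value at 100K, at 0.708 and 0.705, and then 11.6-fold and 4.82-fold above it at 800K. At 100K EHF was at 1.499, and the 5 kallikreins lay between 1.72 and 2.31, a range that also holds GRHL3. Whether the kallikreins rose at lower densities than these factors was not tested, and 1 array per density cannot tell. The slopes of these 4 factors lay between 0.72 and 1.08, with adjusted p between 0.00101 and 0.00901 in limma.

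**Figure D4:**
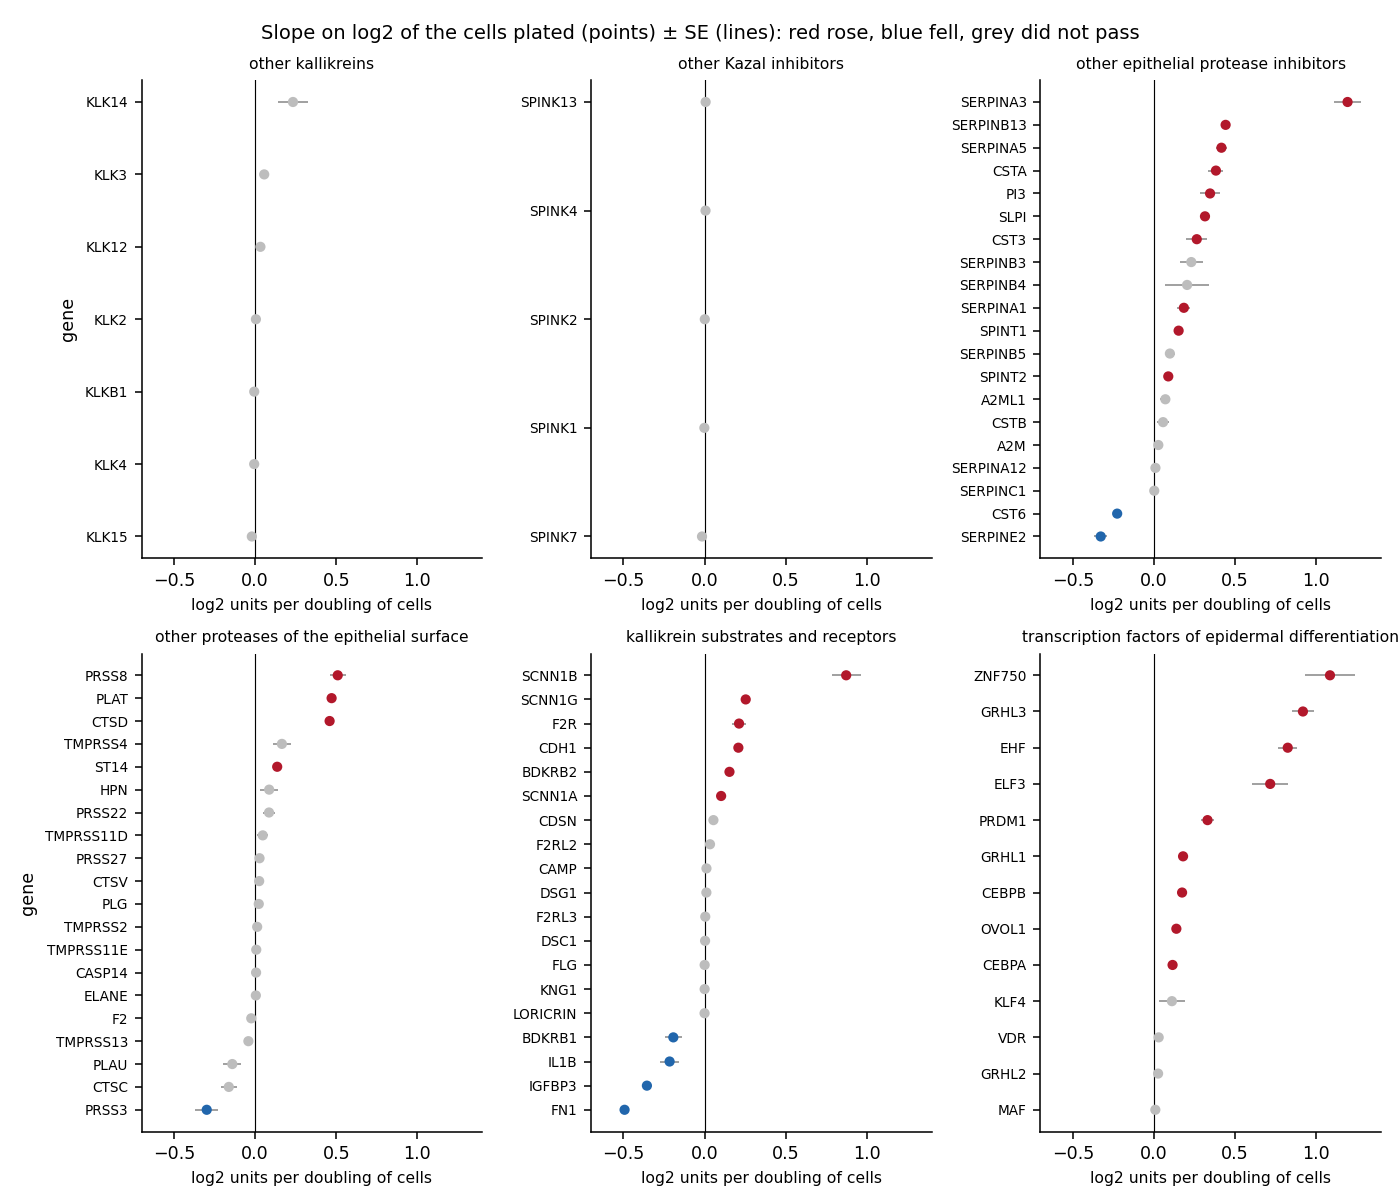
Slope over density, in log2 units per doubling of the cell number (points), with its standard error (lines), for the measured genes of 6 lists, from 6 arrays. Red genes rose, blue genes fell and grey genes did not pass. Other kallikreins and Kazal inhibitors, which remained after the members were chosen by their profiles, are all grey. Of the protease inhibitors 10 of 20 are red, and of the transcription factors 9 of 13. All lists were chosen with earlier results of these data known. Over all genes 8.93% rose and 12.4% fell.

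The genes outside the family whose profile was closest to KLK7, the member with the steepest climb, were IFITM1, EHF and ASS1, with root mean square differences of 0.15, 0.18 and 0.21 log2 units over 5 arrays. Closest to SPINK6 were LNCAROD, CCBE1 and FAM111B, at 0.34, 0.35 and 0.35. All of these points share the same 6 arrays and the same 50K denominator.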

How the data were processed

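Total RNA of MCF10A cells, 200 ng per array, was labelled with biotin for hybridisation, per the labels' protocols, to HG-U133 Plus 2 arrays. RMA is named without a version, per the submitters' processing notes. The deposited values are linear ratios: the 50K column is 1, within 1e-06, in each of its 54675 rows. Their division by 50K and the arrays' scaling have methods not given in the sources used here.

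Log2 ratios were averaged over the probe sets with 1 symbol in the platform annotation (1801 had several, 11777 none; 62 controls were left out), with no filter on low values. Of 41091 such probe sets, 41037 matched RefSeq by gene ID. Slopes on log2 cells plated were fitted to all 6 arrays with limma 3.58.1 in R 4.3.3 (lmFit, eBayes, 4 residual degrees of freedom before moderation, two-sided). With 1 array per density, residuals mix dish, technical noise and departure from a line. In simulated data on 19775 genes, 84% of 100 genes changed 2-fold and 91% of 100 changed 4-fold over the range were recovered, with 10 unchanged genes called. The simulation used independent normal noise and exact straight lines, with far fewer changed genes than were called in the data. Its recovery and false calls therefore need not hold for these arrays.

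Members, lists and motifs were chosen with earlier results of these data known. Named genes were all members, up to 4 called genes per list by absolute slope plus called genes against its majority, chromosomal neighbours, and the 3 closest profiles; SPINK5 could not enter the last.

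Alternatives left out _x_at and _s_at probe sets, centred arrays on medians, used the cell number or its rank, robust variances, 2 groups of 3 densities, single probe sets, or 5 arrays.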

Additional observations from a re-analysis of the deposited data

Results flagged for a closer look

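A probe set annotated to both KLK9 and KLK8 was kept out of the gene values because it carries more than 1 symbol. At 800K it stood 2.25-fold above 50K, with ratios of 1.32, 1.49, 1.80, 2.28 and 2.25 from 100K to 800K, and so stood above the sparsest array on all 5 others. It was listed here because it is a signal outside the values used above. Which of these genes it reports cannot be told apart.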

How the results depend on the processing

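The slopes of KLK1, KLK5, KLK6, KLK7, KLK8, KLK10, KLK11 and SPINK6 kept their sign under all alternatives run. With 1 array left out they lay between 0.15 and 0.20 for KLK1, 0.31 and 0.53 for KLK5, 0.71 and 0.80 for KLK7, 0.47 and 0.65 for KLK8, 0.60 and 0.73 for KLK10, 0.58 and 0.70 for KLK11, and −1.11 and −0.76 for SPINK6. KLK13 turned sign: −0.0045 with centred arrays, −0.0042 on the cell number, −0.00011 on its rank, −0.0105 between 2 groups of densities, −0.0371 to 0.0179 with 1 array left out (−0.0371 without 50K, −0.0037 without 600K), and −0.0036 and −0.0295 in 2 single probe sets. The member counts that follow are a description, because the same profiles chose the members. Among members, 6 passed with a positive slope, 5 without 50K, 600K or 800K (KLK1 lost) and 5 on the cell number (KLK5 lost). When 400K, 600K and 800K were set against the 3 lower densities, 0 passed as higher in limma (7 at an unadjusted p under 0.05) and 1 as lower, against 4.59% and 6.83% of all genes; CST6, SERPINE2, PRSS8 and SCNN1G also lost their calls there (adjusted p 0.0502 to 0.0778), as did SERPINE2 on the cell number (0.0563). IL1B, BDKRB1 and PRSS3 lost theirs under most alternatives, with adjusted p up to 0.354, 0.343 and 0.272. Without _x_at and _s_at probe sets KLK1, KLK5 and KLK11 had no probe set left, and 3 of the 6 remaining passed as higher. Genes with a trend numbered 4220, 2664 without these probe sets, 2259 between 2 groups, and 2388 to 3909 with 1 array left out (2447 without 600K, 2388 without 800K). Related genes that passed numbered 36, then 23 and 17 under the same settings, and 26 to 36 with 1 array left out. Without _x_at and _s_at probe sets SERPINB13 reversed (−0.0095). FN1 no longer passed there (−0.08, adjusted p = 0.175 in limma), and PLAT, PRSS3, IGFBP3 and ZNF750 had no probe set left. The causes were not tested. Leaving out probe sets or arrays also leaves fewer values, and the part of this in the changes was not tested either. No paired analysis was possible because each density has a single array. Signal over background is unknown from ratios.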
